A study of Mus musculus with 4 samples.

Results

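The genes described here carry the GDNF signal that drives branching of the ureteric bud in the embryonic kidney. They are Gdnf, Ret, Gfra1, Etv4, Etv5, Wnt11, Sox8, Sox9, Spry1 and Spry2, 10 of the genes measured on 4 arrays. All probe sets to which the platform annotation gives 1 of these symbols and no other were taken, 19 of the 45037 probe sets that are no controls, and 17 of them were bright enough to be tested, being outside the lowest 40% by mean log2 signal. Signals are linear intensities in arbitrary units, and a signal was called above background where it exceeded the highest control probe set for RNA that was not added. All groups were C57BL/6 kidneys at embryonic day 15, from dams that were 8 weeks old when they entered the diets. The control dams ate a diet with 220 ppm iron and the iron-deficient dams a synthetic diet with approximately 2 to 6 ppm iron. Both diets began 3 weeks before gestation and continued through pregnancy. Each diet is represented by 2 pools of 16 kidneys, with 1 array per pool, and the labels do not state which litters went into which pool. For this reason the p-values speak only to variation among the arrays at hand, part or all of which may be technical, and precision is limited by there being 2 arrays a diet. In RNA from whole kidneys fewer cells of a type and less RNA per cell cannot be told apart.

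GDNF is secreted by the nephron progenitors that cap each ureteric bud tip. It binds the co-receptor GFRA1 and activates the receptor tyrosine kinase RET on the tip cells, which proliferate, move and branch. RET signalling raises the ETS factors Etv4 and Etv5 and the ligand Wnt11, which in turn helps to sustain Gdnf. Sox8 and Sox9 act in the tips alongside this pathway, and the sprouty proteins restrain RET and FGF receptor signalling.

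Promoter windows of 4 genes are printed here because Gdnf is the ligand that starts the pathway, and Etv5, Sox8 and Spry2 are members whose brightest probe sets were more than 2-fold above the control mean in one iron-deficient pool. Each shows the 250 bases before a gene start in RefSeq's GRCm38.p6 annotation, 5′ to 3′ on the gene's strand. The windows are chr15:7809798-7810047 (plus strand) for Gdnf, chr16:22439571-22439820 (minus strand) for Etv5, chr17:25570687-25570936 (minus strand) for Sox8 and chr14:105896820-105897069 (minus strand) for Spry2. Gdnf and Etv5 have a second window each, which is not printed. Capitals mark matches, on either strand, to the hypoxia response cores ACGTG and GCGTG, the ETS motif AGGAAG and the SOX motif ACAAAG.
Gdnf: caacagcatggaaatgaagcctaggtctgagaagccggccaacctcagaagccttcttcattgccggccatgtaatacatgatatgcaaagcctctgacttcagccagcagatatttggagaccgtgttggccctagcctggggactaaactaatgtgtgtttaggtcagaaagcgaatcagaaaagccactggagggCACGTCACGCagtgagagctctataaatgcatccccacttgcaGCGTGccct
Etv5: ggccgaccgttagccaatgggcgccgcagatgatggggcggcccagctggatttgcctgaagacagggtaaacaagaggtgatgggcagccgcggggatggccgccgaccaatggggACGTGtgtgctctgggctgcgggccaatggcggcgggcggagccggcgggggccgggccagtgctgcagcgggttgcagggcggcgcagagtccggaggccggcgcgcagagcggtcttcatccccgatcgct
Sox8: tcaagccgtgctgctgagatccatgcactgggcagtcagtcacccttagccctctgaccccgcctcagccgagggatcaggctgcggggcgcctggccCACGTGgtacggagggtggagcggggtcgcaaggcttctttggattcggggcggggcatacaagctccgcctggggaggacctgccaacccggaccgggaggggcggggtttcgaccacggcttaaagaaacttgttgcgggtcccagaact
Spry2: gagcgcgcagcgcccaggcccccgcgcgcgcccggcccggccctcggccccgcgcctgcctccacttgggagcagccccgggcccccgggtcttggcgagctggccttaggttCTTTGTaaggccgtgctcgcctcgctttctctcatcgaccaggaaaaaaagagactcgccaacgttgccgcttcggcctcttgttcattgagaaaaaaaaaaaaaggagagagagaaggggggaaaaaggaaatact

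The annotation table held 10 windows for 7 of the 10 genes, and none for Ret, Etv4 and Sox9. Of these 10 windows, 6 held ACGTG or GCGTG, against 38.6% of all 32851 windows of the same length. Gdnf held ACGTG once and GCGTG 2 times in the window shown. In Sox8 both matches to ACGTG lie on the same palindrome, CACGTG, and overlap. AGGAAG was in 2 windows, against 29.5% of all, and ACAAAG was in 1 window, that of Spry2, against 16.5%. A match is a run of letters and not evidence of binding.

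None of the 17 tested probe sets passed limma's test for diet at an adjusted p of 0.05 over 27022 probe sets, of which 0% passed, and their adjusted p ran from 0.852 to 0.971. At an unadjusted p of 0.05 none of the 17 passed either, where 3.96% of all tested did (1.14% higher and 2.81% lower). The iron-deficient pools differed from each other. By the brightest probe set of each gene, iron-deficient pool 1 had Sox9 and Sox8 several-fold above the controls. Etv5 and Spry2 were more than 2-fold above the control mean there, and Ret and Spry1 were above both controls by less. Etv4, Gfra1, Gdnf and Wnt11 were below both controls in that pool. For Etv4 and Gfra1, 1 dimmer probe set each read above the controls in pool 1, and the dimmer Ret probe set read below them. In iron-deficient pool 2, the brightest probe set of each of the 10 genes lay within 0.38 log2 units of the control mean. The 2 iron-deficient pools lay further apart than the 2 control pools in 17 of 17 tested probe sets, against 77.0% of all tested.

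**Figure D1:**
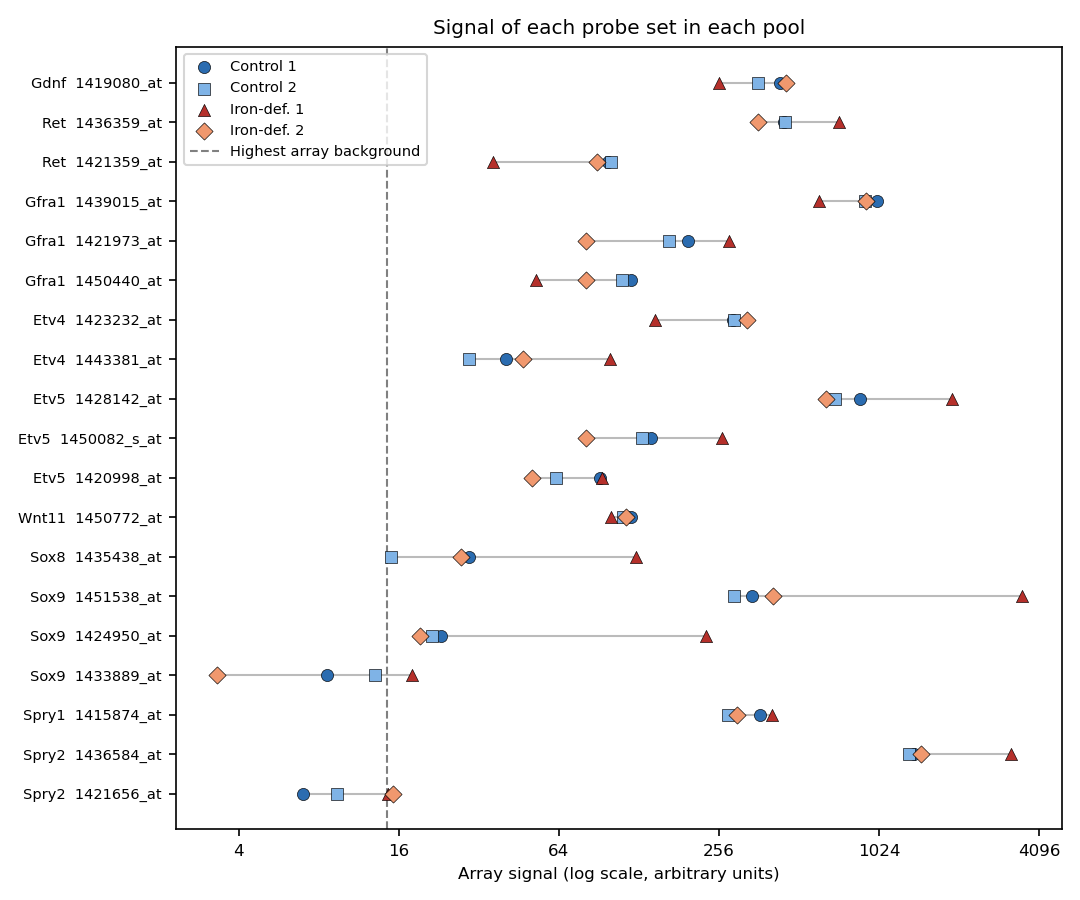
Array signal (x axis, log scale) of each of the 19 probe sets (y axis) in the 4 pools, with 1 symbol per pool and a dashed line at 14.4, the highest background of any array. Iron-deficient pool 1 (red triangles) stands at the end of the range in most rows, with Sox9 at 3529 against 291.7 to 409.1 in the other pools, while the pools of Wnt11 lie close together.

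Both iron-deficient arrays stood apart in some respects, that of pool 1 most in its correlations. Its log2 signals correlated with those of the other arrays at 0.883 to 0.913 across probe sets, where the control arrays reached 0.978. Its 18S control signal was 2144.5, against 243 to 291.9 in the other arrays. The ratio of 3′ to 5′ signal was also highest there, at 1.43 for Gapdh and 1.64 for beta-actin, against 1.26 to 1.36 and 1.38 to 1.49 elsewhere. Iron-deficient pool 2 stood apart in genes of other tissues. Albumin (Alb), a liver gene, read 372.6 there against 17.3 to 45.3 in the other pools, and the muscle genes Myog and Myh3 read 129.9 and 268.6 against 16.4 to 56.5 and 16.3 to 36.6. The labels call every sample female, but Eif2s3y, a Y-linked gene, read 594.5 and 600 under the control diet against 253.6 and 20.8 under iron deficiency. Xist, which marks the inactive X chromosome, read 926.6 and 167.8 against 3427.3 and 1543.3. The part of these features in the results below was not tested, and each value given without pool 1 rests on pool 2. All 15 genes of the ureteric epithelium list and all 10 of the nephron progenitor list that were analysed were above background in all 4 pools.

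The difference between diets in the ligand was within the spread of the pools. Gdnf read 433.7 and 358.6 under the control diet against 256.5 and 458.5 under iron deficiency. Iron-deficient pool 1 was thus the lowest of the 4 and pool 2 the highest. The log2 difference, iron-deficient minus control, was -0.20 ± 0.41 (SE; limma adjusted p = 0.902), with a 95% interval from -1.22 to 0.82. Without iron-deficient pool 1 the difference was 0.22.

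Ret, the signalling receptor, gave opposite readings from its probe sets. The brighter, 1436359_at, read 449.9 and 452.8 under the control diet against 726.4 and 358.4 under iron deficiency, so the iron-deficient pools lay on opposite sides of both controls. Its log2 difference was 0.18 ± 0.44 (SE; limma adjusted p = 0.918), or -0.33 without iron-deficient pool 1. The dimmer Ret probe set, 1421359_at, read 97.9 and 100.7 under the control diet against 36.2 and 88.8 under iron deficiency. Here both iron-deficient pools were below both controls, with a difference of -0.81 ± 0.50 (SE). In iron-deficient pool 1 the brighter probe set was thus 1.61 times the control mean and the dimmer 0.365 times, so that this array gives no single direction for Ret. In pool 2 both were below both controls, at 0.794 and 0.894 times the control mean.

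Gfra1, which presents GDNF to RET, was covered by 3 probe sets with negative differences throughout. The brightest, 1439015_at, read 1008.9 and 911.4 under the control diet against 609.7 and 914 under iron deficiency (-0.36 ± 0.36, SE; limma adjusted p = 0.852). Only pool 1 was below both controls. In 1450440_at both iron-deficient pools, at 52.5 and 81.2, were below the controls at 120 and 110.6. Its difference of -0.82 ± 0.36 (SE) had the smallest unadjusted p among the 10 genes, 0.0692 by limma. The third, 1421973_at, read 196.6 and 165.7 under the control diet against 278.2 and 81.2 under iron deficiency, with pool 1 high and pool 2 low. Its difference of -0.26 ± 0.62 turned to 0.62 without iron-deficient pool 2.

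The ETS factors Etv4 and Etv5, which RET signalling induces and which act in part redundantly in the tips, lay on opposite sides of the controls in pool 1 by their brightest probe sets. Etv4 (1423232_at) read 289.7 and 292.7 under the control diet against 146.7 and 325.5 under iron deficiency, so pool 1 was lowest and pool 2 highest. The difference was -0.41 ± 0.46 (SE; limma adjusted p = 0.855), or 0.16 without pool 1. A dimmer Etv4 probe set, 1443381_at, went the other way, with 40.6 and 29.3 under the control diet against 99.9 and 46.9 under iron deficiency. There both iron-deficient pools were above both controls (0.99 ± 0.47, SE).

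Etv5 was highest in iron-deficient pool 1 and lowest in iron-deficient pool 2 in all 3 of its probe sets. The brightest, 1428142_at, read 871.6 and 698.3 under the control diet against 1925.6 and 648.9 under iron deficiency. The next, 1450082_s_at, read 142.2 and 131.7 against 263.9 and 80.7. The dimmest, 1420998_at, read 91.2 and 62.5 against 92.6 and 50.9, so that pool 1 barely exceeded control pool 1. Over both pools the differences were 0.52 ± 0.57, 0.09 ± 0.60 and -0.14 ± 0.44 (SE), and the sign of the last turned after quantile normalization and after centring on the medians of the tested probe sets. Without iron-deficient pool 1 they were -0.27, -0.76 and -0.57.

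Wnt11, a ligand made at the tips, was the steadiest of the 10. It read 119.1 and 112 under the control diet against 100.3 and 114.6 under iron deficiency, with pool 1 the lowest. Its difference of -0.11 ± 0.31 (SE; limma adjusted p = 0.932) became positive once the arrays were quantile normalized or centred on the medians of their tested probe sets. The 95% interval ran from -0.89 to 0.68.

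Sox9, a transcription factor of tip cells that is also known from cartilage and the gonad, gave the largest reading in iron-deficient pool 1. Its brightest probe set, 1451538_at, read 342.1 and 291.7 under the control diet, against 3529 (pool 1) and 409.1 (pool 2) under iron deficiency. Pool 1 was 11.1 times the control mean and pool 2 1.29 times, and both were above both controls. The difference was 1.93 ± 0.99 (SE; limma adjusted p = 0.852), or 0.37 without pool 1. A second probe set, 1424950_at, read 23 and 21.4 under the control diet against 228.9 and 19.2 under iron deficiency. In that probe set pool 1 was 10.3 times the control mean, and pool 2 was below both controls. Of all tested probe sets, 0.459% were at least 10-fold (log2 scale) above the control mean in pool 1. The third, 1433889_at, was too dim to be tested and read 8.6 and 13 in the controls, 17.9 in iron-deficient pool 1 and 3.3, below background, in pool 2.

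Sox8, a close relative with overlapping function in the tips, read 29.5 and 15 under the control diet against 124.7 and 27.4 under iron deficiency. Pool 1 was 5.60 times the control mean, and pool 2 lay between the controls. Its difference was 1.47 ± 0.79 (SE; limma adjusted p = 0.852), or 0.38 without pool 1. The control pools themselves differed 1.97-fold, the widest gap between controls among the 17 tested probe sets of the 10 genes. Sox10, the remaining relative, which marks neural crest and glia, read 8.3 and 11.4 under the control diet against 8.8 and 8.5 under iron deficiency in its brightest probe set, above background in 1 pool.

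Markers of other cells that use these Sox genes were read beside them. The chondrocyte list, of which 8 of 8 genes were analysed, summed to 622.3 and 552.2 under the control diet against 747.9 and 747.5 under iron deficiency. Its members differed in pattern. Col2a1, a cartilage collagen, was highest in iron-deficient pool 2 at 309.5, and Col9a1, another, was highest in pool 1 at 307.9. Acan, a cartilage proteoglycan, read 5.5 in iron-deficient pool 1, below background, and no gene of the 3 lists was at 0 in any pool (0 of each). The gonad and Sertoli cell list, 6 of 7 genes analysed, summed to 52.5 and 63.4 under the control diet against 61.3 and 53.6 under iron deficiency, with Amh not above background in any pool. Gata4, a factor of gonadal somatic cells, read 3.5 and 2.7 against 19.9 and 15.2, above background in both iron-deficient pools and in neither control. Backgrounds of the iron-deficient arrays were 14.4 and 13.3. Nr5a1, also of this list, read 7.1 and 11.6 against 10.6 and 7.4, above background in 1 pool. Of the 6 genes analysed, 3 were above background in no pool, Amh among them. The 1 tested gene of the list, Dhh, read 38.7 and 42.8 against 21.3 and 19.7 (limma unadjusted p = 0.0220, adjusted p = 0.852). The neural list, 9 of 12 genes analysed, summed to 1037.3 and 1051.7 under the control diet against 1498.8 and 1324.6 under iron deficiency. Within it Th, the enzyme that starts catecholamine synthesis, was above background in 1 pool, reading 4.6 and 5 under the control diet against 81.8 (pool 1) and 8.7 (pool 2) under iron deficiency. Dbh, a later enzyme of that synthesis, read 7.1 and 4.9 against 37.5 and 20.6, above background in both iron-deficient pools. Of the genes bright enough to test, 2 of 5 in the chondrocyte list and 2 of 3 in the neural list were above the controls in both iron-deficient pools, against 13.1% of all gene symbols. The 2 neural genes were Stmn2, at 286 and 315.1 against 432.2 and 548.5, and Erbb3, at 563.1 and 554.4 against 712.4 and 583.6. Erbb3 was the brightest gene of the neural list in every pool and so the largest part of its sums. The third, Elavl4, read 152.2 and 134.3 against 172.3 and 116.4, with pool 2 below both controls. Foxd3, a neural crest factor, was not above background in any pool. The part of cartilage, gonadal and neural cells in the readings of either iron-deficient pool was not tested.

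The sprouty genes are feedback inhibitors that RET and FGF signals raise, and neither passed the test. Spry2 (1436584_at) read 1388.5 and 1333.7 under the control diet against 3211.7 and 1469.2 under iron deficiency. Both iron-deficient pools were above both controls, pool 1 at 2.36 times the control mean and pool 2 at 1.08 times (0.67 ± 0.46, SE; limma adjusted p = 0.852). A dim Spry2 probe set, 1421656_at, was not tested and read 7 and 9.4 against 14.5 and 15.2. These readings lay near the backgrounds of their arrays, which were 8.5 and 8.2 under the control diet against 14.4 and 13.3 under iron deficiency. Spry1, the member whose loss in mice gives extra ureteric buds, read 366.2 and 276.1 under the control diet against 405.7 and 299.2 under iron deficiency. The pools of the diets overlapped, and the difference was 0.13 ± 0.36 (SE; limma adjusted p = 0.925), or -0.09 without iron-deficient pool 1 and -0.07 without control pool 2.

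**Figure D2:**
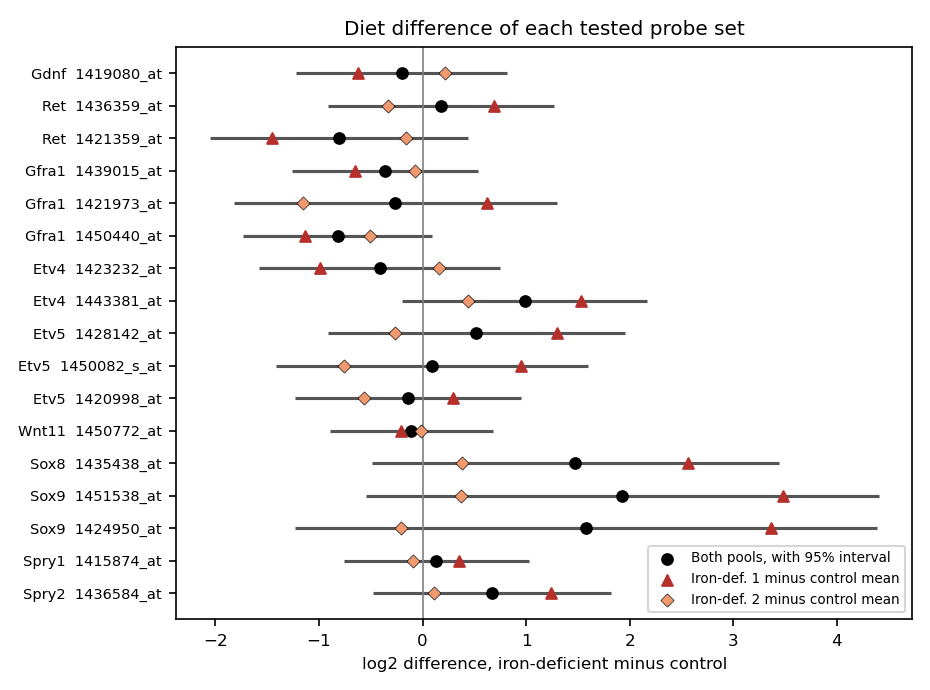
log2 difference, iron-deficient minus control (x axis), of each of the 17 tested probe sets (y axis). Black points with bars give both pools with the 95% interval from limma, and coloured symbols give each iron-deficient pool minus the control mean. Every interval crosses 0, and for Sox9 the pools lie at 3.48 and 0.37.

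Counted over the 17 tested probe sets, both iron-deficient pools were above both controls in 3 (all tested: 11.8%) and below both in 2 (all tested: 25%). The 3 were 1 each of Sox9, Spry2 and Etv4, and the 2 were 1 each of Ret and Gfra1. By pool, 11 of 17 were above both controls in iron-deficient pool 1 (all tested: 34.9%) and 6 below (52.6%). In iron-deficient pool 2, 5 were above (31.3%) and 8 below (40.5%). In 8 of 17 the pools lay on opposite sides of both controls (28.4%). At least 2-fold above the control mean on the log2 scale were 6 in pool 1 (11.5%) and 0 in pool 2 (1.51%). At least 2-fold below were 2 in pool 1 (13.1%) and 1 in pool 2 (2.76%). These probe sets include several of the same gene and are not independent.

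With the brightest probe set of each gene, the 10 genes had a median log2 difference of 0.15, where all 12997 gene symbols had a median of -0.14. Relative to that median it was 0.29. In pool 1 by itself the median was 0.52 (all: -0.31), and in pool 2 it was 0.05 (all: 0.003). Of the 10, 6 were above both controls in pool 1 (all gene symbols: 30.1%) and 4 below (60.2%), and in pool 2 4 were above (37.9%) and 2 below (38.4%). Of the 5 genes with several tested probe sets, pool 1 lay on both sides of the controls for 3, Ret, Gfra1 and Etv4. Centring each array on the median of its tested probe sets moved the median of all of them by 0.20.

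**Figure D3:**
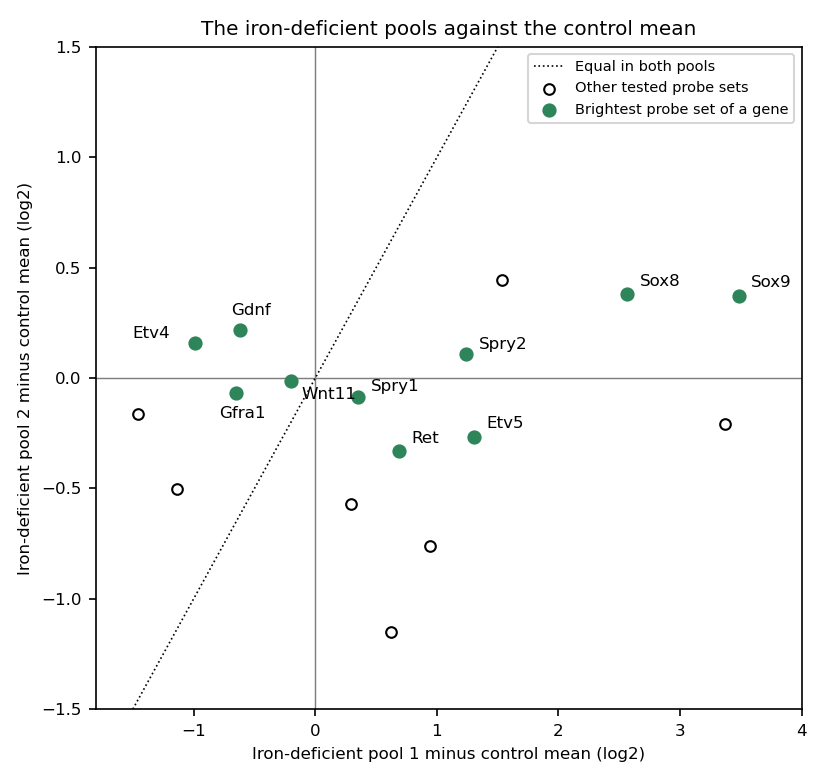
Each tested probe set of the 10 genes by its log2 difference from the control mean in iron-deficient pool 1 (x axis) and in iron-deficient pool 2 (y axis), with filled points for the brightest probe set of each gene and a dotted line where both pools would be equal. The filled points spread from -0.99 (Etv4) to 3.48 (Sox9) along x and from -0.33 (Ret) to 0.38 (Sox8) along y.

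The other genes of the pathway were read on the brightest tested probe set of each gene. In these lists 0 genes passed limma's test at an adjusted p of 0.05 over all 27022 probe sets. The lists overlap, and a shared gene is counted in each. Sall1 and Wt1, among others, are in both the list of regulators that permit Gdnf and the nephron progenitor list. Dusp6, among others, is in both the list of other tip genes and that of ERK feedback. The genes named come from the 4 with the smallest p of each list, and Gfra2, Nrtn, Spry4 and Dusp6 are given as relatives whatever their p. An unadjusted p is given only where it was under 0.05. Over all gene symbols, both iron-deficient pools were above both controls in 13.1% and below both in 26%.

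Among the other GDNF family ligands and co-receptors, 5 of 8 were tested, with 1 above the controls in both iron-deficient pools and 1 below. The lower one was Sdc3, a heparan sulphate proteoglycan that binds GDNF (-0.41 ± 0.36, SE). Sdc3 read 174.1 and 197.8 under the control diet against 114 and 171.2 under iron deficiency, with pool 2 just below control pool 1. The higher one was Ncam1, an alternative GDNF receptor, at 2579 and 2909.2 under the control diet against 5977.7 and 3284.6 under iron deficiency. Gfra2, the neurturin co-receptor, read 336.5 and 261.2 against 1100.4 and 310.9, so that pool 1 was highest and pool 2 lay between the controls. In its other 2 tested probe sets both iron-deficient pools were above both controls, with pool 1 highest. The first read 34.4 and 24 against 90.4 and 39.1, and the second 45.1 and 38.6 against 123.1 and 49.7. Gfra4 read 95.8 and 103.5 against 36.7 and 99.2. Neurturin itself (Nrtn) was too dim to be tested, at 12.6 and 13.8 against 22.1 and 11.3.

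Regulators that permit Gdnf expression or action, such as transcription factors of the progenitors and matrix proteins between progenitor and bud, had 6 of 15 tested genes above the controls in both iron-deficient pools and 0 below. Sall1 read 1476.1 and 1376.9 under the control diet against 2471.5 and 1532.2 under iron deficiency, and Wt1 1301.7 and 1324.1 against 1649.4 and 1630.7. For Wt1 the iron-deficient pools were of like level (0.32 ± 0.31, SE). Grip1, a scaffold for the Fraser complex, read 241.9 and 217.3 against 562 and 242.2 (0.69 ± 0.48, SE). Its pool 2 barely exceeded control pool 1. Of 7 regulators that restrict Gdnf, 2 were higher in both and 1 lower. The lower one was Srgap1, at 607.1 and 443.9 against 371.7 and 397.6. Slit2, the ligand of Robo2, read 1506.4 and 2047.4 against 4212.1 and 2120.5. Robo2 itself read 176.3 and 16.4 against 219.5 and 132.4, with the control pools far apart and pool 2 between them. Fat4, a stromal cadherin, read 498.8 and 413.3 against 1064.2 and 614.9 (0.83 ± 0.40, SE).

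The adaptors and kinases below RET were divided, with 4 of 16 tested genes above the controls under iron deficiency in both pools and 2 below, and a median difference of 0.001. Plcg1, a phospholipase that docks on RET, read 2049.9 and 2182.8 against 4457.5 and 2387. Dok4, an adaptor of RET, read 183.6 and 166.9 against 58.1 and 132, which is -1.59 (pool 1) and -0.41 (pool 2) from the control mean in log2 units. Pool 1 was above both controls in 7 of the 16 (all gene symbols: 30.1%) and below both in 8 (60.2%).

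Of 6 other tip genes reported downstream of Ret, 3 were above the controls under iron deficiency in both pools and 1 was below, and 5 were above both controls in pool 1 (all gene symbols: 30.1%). Cxcr4, a chemokine receptor, read 841.8 and 932.7 under the control diet against 3273.4 and 1058.3 under iron deficiency. Mmp14, a membrane protease, went the other way, with 610.3 and 506.9 against 364.2 and 445.9. Their median was 1.11 in pool 1 and 0.06 in pool 2.

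Feedback inhibitors of ERK signalling had 3 of 12 higher in both and 2 lower. Dusp6, an ERK phosphatase, read 1021.7 and 1060.2 against 2454.5 and 1269.3, with both iron-deficient pools above both controls. Spry4 read 184.1 and 188.7 against 171.8 and 201.5 in its brightest tested probe set and differed by less than 0.01 (-0.003 ± 0.32, SE). Dusp4 was lower in both, at 210.5 and 190.7 against 93.2 and 186.2. FGF inputs to the bud had 1 of 7 higher in both and 1 lower. Fgf10 read 18.2 and 17.3 against 35.6 and 18.8, and its receptor Fgfr2 2158.9 and 2076.4 against 2905.4 and 2053.

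**Figure D4:**
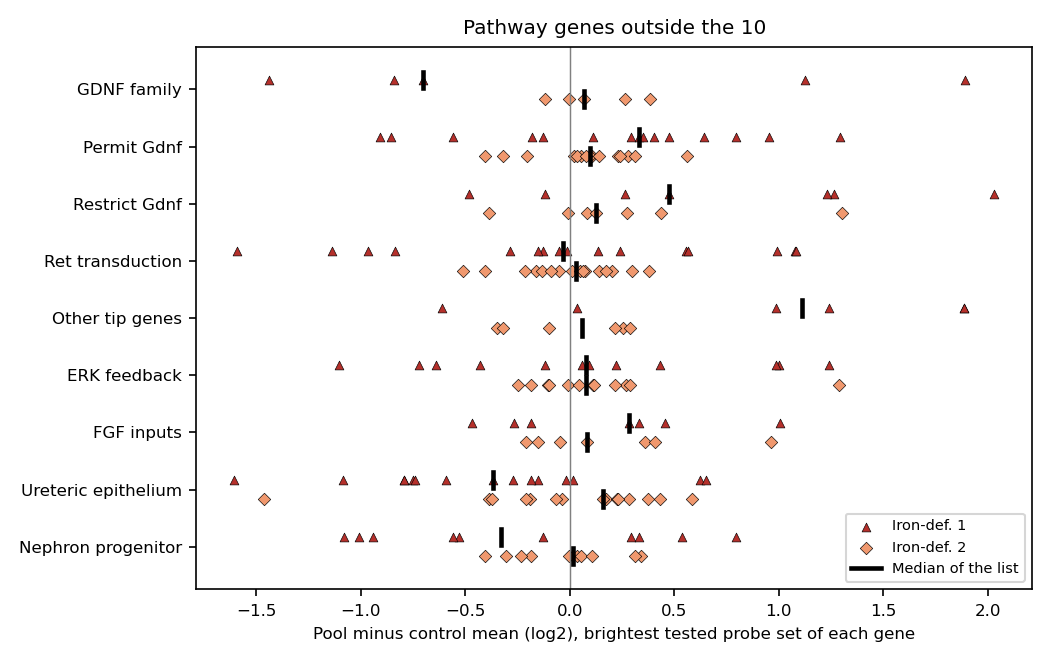
Difference of each iron-deficient pool from the control mean (x axis, log2) for the pathway genes outside the 10, 1 point per gene and pool, grouped by list (y axis), with black bars at the median of each list. The points of pool 1 are spread more widely than those of pool 2, and the median of the other tip genes is 1.11 in pool 1 and 0.06 in pool 2.

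The cells that carry and receive the signal were read from their own markers. The ureteric epithelium list had 1 of 15 tested genes above the controls under iron deficiency in both pools and 5 below, and its summed signal was 17089.9 and 18973.2 under the control diet against 16105.8 and 20074.6 under iron deficiency. In pool 1, 3 of the 15 were above both controls (all gene symbols: 30.1%) and 11 below (60.2%). In pool 2, 8 were above (37.9%) and 6 below (38.4%). Epcam, an epithelial adhesion molecule, read 1146.5 and 1381.7 against 1974.4 and 1474.7. Wnt7b, a ligand of the ureteric trunk, read 68.9 and 74.8 against 23.6 and 55. Aqp2, the water channel of the collecting duct, read 59.3 and 35.4 against 26.4 and 16.6 (-1.13 ± 0.43, SE; limma unadjusted p = 0.0431, adjusted p = 0.852). The nephron progenitor list had 4 of 10 higher and 3 lower, with sums of 7192.3 and 6972.9 under the control diet against 6924.9 and 7162 under iron deficiency. In it Six2 read 95.1 and 70.4 against 118.8 and 103.7, and Cited1 1059.2 and 1272.9 against 548.9 and 1019.9. The proximal tubule list, by comparison, had 9 of 9 lower in both iron-deficient pools and 7 at an unadjusted p under 0.05 (all gene symbols, lower: 3.3%), and the urothelium list had 4 of 6 lower in both, 3 of them at that p.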

How the data were processed

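RNA from 4 kidney pools was labelled with biotin and hybridised to 1 Affymetrix array each, per the labels' protocols. The deposited intensity values are linear, with each array at a trimmed mean of 250.0 after leaving out 2% at each end. The submitters' processing notes name RMA, but the deposited intensities are not logarithmic and share no distribution, leaving the software not given in the sources used here. Pools were grouped by their titles, and 0 columns were unused.

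Zeros were set to 0.1, values were turned to log2, and 64 control probe sets and the lowest 40% of the others by mean log2 signal (17.3) were left out. Diet was tested over 27022 probe sets with limma 3.58.1 in R 4.3.3 (lmFit, eBayes, two-sided, Benjamini-Hochberg; 2 residual and 3.49 prior degrees of freedom). The procedure was tested on simulated data. Background of an array was its highest of 27 unspiked control probe sets. Of the probe sets, 34945 had 1 symbol, 932 several and 9160 none. Etv1, whose probe sets carry several symbols, and listed genes without a single-symbol probe set were not analysed here. Named were all members, the relatives Etv1, Sox10, Gfra2, Nrtn, Spry4 and Dusp6, and up to 4 genes per list by smallest p. Th, Dbh, Amh, Gata4, Nr5a1, Foxd3, Alb, Myog and Myh3 were named after their values were seen. The members and lists were chosen with earlier results of these data known. Alternatives were no filter, leaving out 60%, quantile normalization, median centring, an offset of 16, an eBayes trend or robust fit, weighted arrays, a block on replicate numbers, leaving out each pool, an adjusted p of 0.10 and 1 probe set per gene. The filter by mean log2 signal, in place of mean signal, and centring over the tested probe sets, in place of all, were chosen after both versions of each had been run.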

Additional observations from a re-analysis of the deposited data

How the results depend on the processing

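Of all probe sets tested, 0 passed limma's adjusted threshold with 1069 at an unadjusted p under 0.05. With 1 probe set per gene 13 passed, none of them one of the 10 genes, and with each pool left out in turn 0 to 75 passed. The count among the 17 probe sets of the 10 genes stayed at 0 of adjusted calls without each pool, and the count at an unadjusted p under 0.05 ran from 1 to 12, with the 12 found without iron-deficient pool 2 (8 higher, 4 lower). Leaving out a pool leaves 1 array in its diet, which is assumed to vary like the other diet; without iron-deficient pool 2 the spread comes from the control pools, so these counts rest on that assumption. The median of the 10 genes was 0.29 after quantile normalization and 0.35 after median centring, and 0.050 to 0.52 with a pool left out. The median of all tested probe sets moved too, from -0.10 to -0.053 after quantile normalization and to 0.093 after median centring. With a pool left out it ran from -0.18 to -0.035. Wnt11 turned to 0.040 after quantile normalization and 0.089 after median centring, and the dimmest Etv5 probe set to 0.00062 and 0.059. With a pool left out, the lowest and highest differences were -0.62 and 0.22 for Gdnf, -0.33 and 0.69 for Ret (1436359_at), -1.15 and 0.62 for Gfra1 (1421973_at) and -0.99 and 0.16 for Etv4 (1423232_at). They were -0.27 and 1.30, -0.76 and 0.95, and -0.57 and 0.29 for the Etv5 probe sets, -0.21 and 3.37 for Sox9 (1424950_at) and -0.088 and 0.35 for Spry1. The cause was not tested.

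The pool numbers are shared between diets but nothing says that they pair the pools, and the deviations of same-numbered pools correlated at 0.357. With the replicate number as a block, 479 probe sets passed over all, 2 among the 10 genes (Sox9 1451538_at and 1424950_at, limma adjusted p = 0.00451 and 0.0462). At an unadjusted p under 0.05 the blocked fit put 4 of their probe sets higher. Of all 27022 tested, 1228 were higher and 1115 lower at that p. That fit had 1 residual degree of freedom and gave each of the 17 the same standard error, 0.47. At an unadjusted p under 0.05, 28.9% of probe sets were higher, against 54.8% after median centring, 40.7% after quantile normalization, 46.2% with no filter and 52.4% with the block. Without control pool 1 it was 81.8% (874 higher, 195 lower), the only pool whose omission put more probe sets higher than lower, and without each other pool it was 32.6% to 32.9%.

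The fixed list of alternatives says that each array is centred on its median and that the filter is by mean, and both phrases can be read in more than 1 way. The readings used above, the median over tested probe sets and the mean of log2 signals, were settled after seeing the data under each reading, and the other readings were then added as alternatives. Centring on the median over all 45037 probe sets gave 201 probe sets past the adjusted threshold (82 higher, 119 lower), where centring over the tested ones gave 0. Of the 10 genes it gave 0 adjusted calls and 3 probe sets at an unadjusted p under 0.05, all higher, with Sox9 1451538_at at a limma adjusted p of 0.0873. At that unadjusted p this centring put 753 of all 27022 tested probe sets higher and 601 lower. Wnt11 and the dimmest Etv5 probe set kept their sign there, and 55.6% of unadjusted calls were higher. A filter by mean signal left 0 adjusted calls, 28.8% higher among the unadjusted ones, and 0 changes of sign among the 17.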
